A study of Caenorhabditis elegans with 12 samples.

Results

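The troponin genes of the nematode Caenorhabditis elegans were followed in whole worms after exposure to rotenone and with age. The 10 genes were taken by symbol from a deposited table of 46748 genes, and all 10 were among the 17166 genes that passed the filter on low counts. They comprise 4 genes of troponin T, 4 of troponin I and 2 of troponin C. Rotenone blocks complex I of the mitochondrial respiratory chain. All worms were hermaphrodites of N2, the wild-type laboratory strain, and RNA was taken from whole animals, so that all tissues are mixed in each library. Controls received 0.1% dimethyl sulfoxide (DMSO), a solvent, and were collected at 5 days or at 15 days of age, with 3 libraries at each age. Treated worms received 100 nM rotenone for 24 h from the last larval stage, L4, and were collected at the same ages, again as 3 libraries each. The labels do not state whether treated worms also received DMSO, when age counting began, or whether separate cultures gave the 3 libraries of a group. A p-value here measures the spread among libraries, which may be technical.

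Troponin is the calcium switch of the thin filament of muscle. Troponin T ties the complex to tropomyosin, troponin I holds back the interaction of actin and myosin at rest, and troponin C binds calcium and releases that block. In C. elegans the body wall muscles, which move the animal, and the pharynx, which pumps food, use different troponin genes. As background knowledge, mup-2, tnt-2 and tnt-3 are body wall forms of troponin T and tnt-4 is the pharyngeal form. The genes unc-27, tni-1 and tni-3 encode body wall troponin I and tni-4 the pharyngeal form. pat-10 encodes the troponin C of body wall muscle and tnc-2 that of the pharynx. This assignment of muscles does not come from the deposited files.

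In the annotation of the genome build WBcel235, 5 of the 10 genes lie on chromosome X. These are mup-2 (WBGene00003495, 6408471 to 6410227), tnt-2 (WBGene00006587, 8721546 to 8723550), tnt-3 (WBGene00006588, 7937633 to 7945099), unc-27 (WBGene00006764, 8789456 to 8790621) and tni-1 (WBGene00006584, 11375887 to 11377470). Chromosome V holds tnt-4 (WBGene00006589, 1989471 to 1992918) and tni-3 (WBGene00006585, 16833638 to 16835128). tni-4 (WBGene00006586, 5204591 to 5207124) lies on chromosome IV, pat-10 (WBGene00003934, 5018783 to 5020358) on chromosome I and tnc-2 (WBGene00006583, 10466852 to 10468358) on chromosome II. Counts were summed over the exons of a whole gene, so that the 11 annotated transcripts of tnt-3 and the 6 of pat-10 cannot be told apart. 157 exon bases of tnc-2, 19.2% of its exon length, are shared with clec-143 on the opposite strand. The library kit named in the labels does not mark the strand, so reads in that stretch cannot be assigned by strand. At 5 days clec-143 itself stood at 0.653 ± 0.0983 CPM in controls and 0.518 ± 0.0845 CPM in treated worms (SD, n = 3), far below tnc-2, where CPM is the count scaled to a common library size as given next. tni-4 shares 16 exon bases with Y59E9AL.36, and the other 8 genes share no exon base with a neighbour. Troponin genes also resemble each other within a class, and the handling of reads with several matches is not given in the sources used here.

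Libraries held 34307432 to 53716605 counts assigned to genes. Levels are given as CPM, counts per 1000000 counts of a library, with library sizes adjusted by TMM factors. At 5 days these factors were 0.957 to 0.983 in controls and 1.05 to 1.06 in treated worms, and at 15 days 0.975 to 0.9995. Marker genes of body wall and pharynx muscle were present in all groups. The 8 body wall muscle markers at 5 days summed to 1726 to 1875 CPM in controls and 1533 to 1557 CPM in treated worms. At 15 days they summed to 801 to 900 and 715 to 838 CPM. The lower sum at 5 days was not shared by all 8. By the test given below 4 of them rose after rotenone and 3 fell at that age. Their median log2 difference was 0.07, and the fall of unc-54 from 566 to 394 CPM weighed most in the sum.

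At 5 days of age after rotenone, the troponin genes split. tnt-2 and unc-27 fell more than 2-fold, tni-3 and pat-10 fell less, and mup-2 fell slightly. The pharyngeal genes tnt-4 and tnc-2 rose, and so did tni-1. tnt-3 and tni-4 did not pass the test. Of the 7 body wall genes 5 fell and 1 rose, and of the 3 pharyngeal genes 2 rose and none fell. In all 3 of 10 members rose and 5 fell (edgeR quasi-likelihood test, Benjamini-Hochberg adjusted p under 0.05 over all genes tested), where 44.7% of all genes tested passed, 21.3% higher and 23.3% lower. The median log2 difference of the members was -0.08, beside 0.03 over all genes. In a whole worm, fewer cells of a type and less RNA per cell cannot be told apart.

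**Figure D1:**
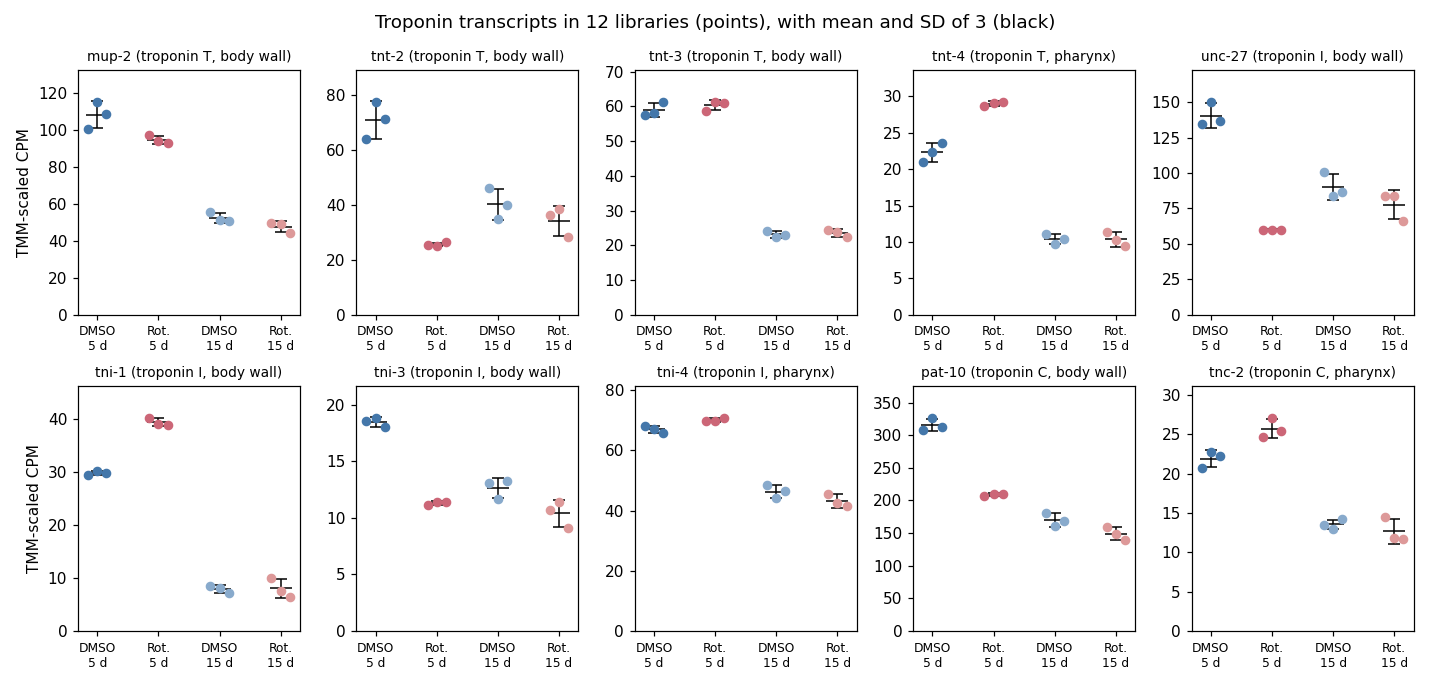
TMM-scaled CPM of each troponin gene (y axis, from 0) in the 4 groups (x axis), with 1 point for each library and the mean and SD of 3 libraries in black. At 5 days the rotenone libraries of tnt-2, unc-27, tni-3 and pat-10 lie below all DMSO libraries, and those of tnt-4, tni-1 and tnc-2 lie above them.

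Among the troponin T genes, tnt-2 had 63.7, 77.4 and 71.0 CPM in the 3 DMSO libraries and 25.3, 25.0 and 26.3 CPM in the 3 rotenone libraries at 5 days. The 3 rotenone libraries lay close together and well below the lowest control. The level was 2.77-fold lower (log2 difference -1.47 ± 0.09, standard error of the fit, edgeR adjusted p = 4.56e-10), and in size of difference tnt-2 ranked 91 of the 17166 genes tested. mup-2, whose loss disturbs the positioning and contraction of embryonic muscle, had 101, 115 and 108 CPM in DMSO and 97.2, 94.0 and 92.8 CPM after rotenone. The groups did not overlap, but the gap between them was small beside the spread in DMSO, and the fall was -0.19 ± 0.05 (edgeR adjusted p = 0.0029). With library totals in place of TMM factors mup-2 no longer passed (-0.07, adjusted p = 0.22). tnt-3 had 57.5, 58.0 and 61.4 CPM in DMSO and 58.8, 61.3 and 61.1 CPM after rotenone, with overlapping groups (0.03 ± 0.04, edgeR adjusted p = 0.51). With library totals tnt-3 passed as higher (0.15, adjusted p = 0.00449). The pharyngeal tnt-4 went the other way, from 21.03, 22.4 and 23.6 CPM in DMSO to 28.6, 29.05 and 29.3 CPM after rotenone. All 3 rotenone libraries were above all controls, a 1.3-fold rise (0.37 ± 0.05, edgeR adjusted p = 1.68e-05).

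Among the troponin I genes, unc-27, the gene behind an uncoordinated movement mutant, had 135, 150 and 137 CPM in DMSO and 59.5, 60.1 and 60.1 CPM after rotenone at 5 days. The treated libraries differed from each other by less than 1 CPM and did not approach the controls. The level was 2.35-fold lower (-1.23 ± 0.07, edgeR adjusted p = 1.39e-10), rank 162 of 17166 by size. tni-3 had 18.5, 18.8 and 17.995 CPM in DMSO and 11.1, 11.4 and 11.4 CPM after rotenone. It was 1.63-fold lower with no overlap (-0.71 ± 0.06, edgeR adjusted p = 3.78e-08). tni-1, also counted among body wall genes, instead rose from 29.5, 30.3 and 29.8 CPM to 40.2, 39.0 and 38.9 CPM. This was a 1.32-fold rise (0.40 ± 0.07, edgeR adjusted p = 0.00018). The pharyngeal tni-4 had 67.98, 67.1 and 65.8 CPM in DMSO and 69.8, 69.6 and 70.8 CPM after rotenone. The groups did not overlap, yet the difference of 0.07 ± 0.04 did not pass (edgeR adjusted p = 0.178). With library totals tni-4 passed as higher (0.19, adjusted p = 0.00107).

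Both troponin C genes passed, in opposite directions. pat-10, without which body wall muscle does not contract, had 308, 327 and 313 CPM in DMSO and 207, 210 and 211 CPM after rotenone, a 1.51-fold lower level (-0.60 ± 0.04, edgeR adjusted p = 1.66e-09). The pharyngeal tnc-2 had 20.7, 22.8 and 22.2 CPM in DMSO and 24.7, 27.1 and 25.4 CPM after rotenone, a 1.17-fold rise (0.23 ± 0.06, edgeR adjusted p = 0.00515). In both genes the rotenone libraries lay apart from the controls. In all, the groups did not overlap in 9 of the 10 members, beside 54.3% of all genes tested. The scaling of libraries moved all genes: the median of all genes was 0.03 with TMM factors and 0.15 with library totals, where 6498 genes were higher and 1774 lower, beside 3662 and 4006. DESeq2 called 2440 higher and 4120 lower. With library totals 5 members were higher and 4 lower. Relative to the median gene, tnt-2 stood at -1.50 and unc-27 at -1.26 both with TMM factors and with library totals. A change of scaling shifts all genes by nearly the same amount, so this sameness was fixed in advance.

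Libraries with the same replicate number shared a sequencing lane, per the labels, so the differences could also be read within a lane. Within lanes 1, 2 and 3 tnt-2 was lower after rotenone by log2 differences of -1.33, -1.63 and -1.43. unc-27 differed by -1.18, -1.32 and -1.18 in these lanes. mup-2 differed by -0.05, -0.30 and -0.23. The 8 members that passed at 5 days kept their direction in all 3 lanes. Their groups did not overlap, so any pairing of libraries must give this, and it is no separate check.

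**Figure D2:**
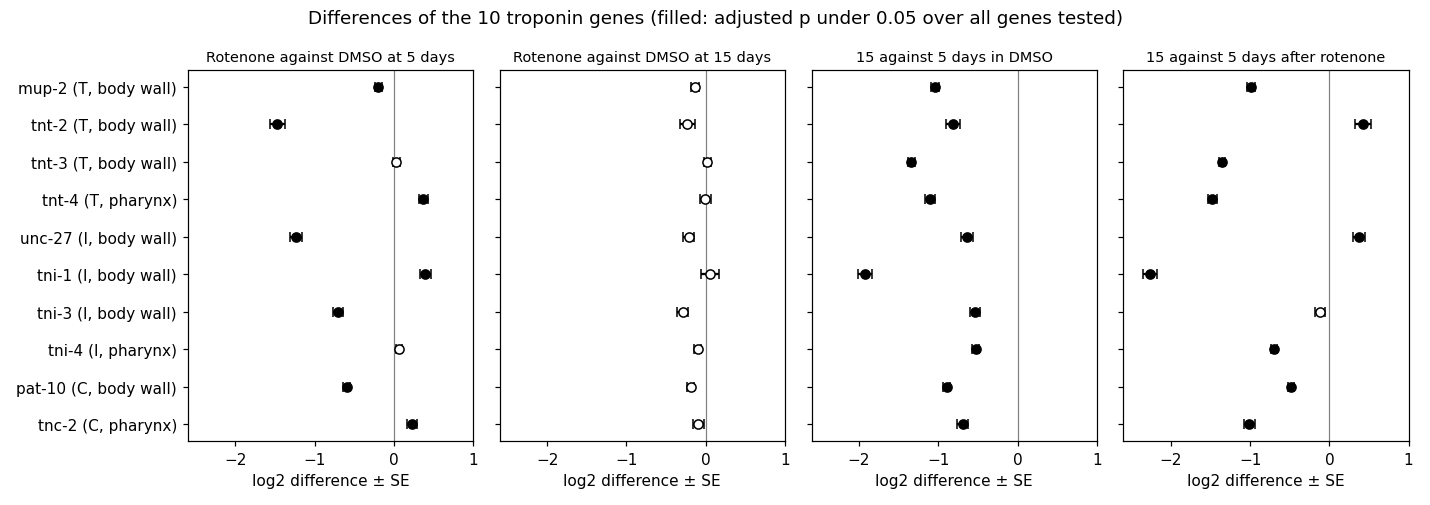
Log2 difference of each troponin gene (x axis, with the standard error of the edgeR fit as bars) in the 4 comparisons, with filled points for genes that passed at an adjusted p under 0.05. The 10 genes spread from -1.47 to 0.40 after rotenone at 5 days, while all points lie below 0 for 15 against 5 days in DMSO.

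Other transcripts moved alongside at 5 days. The 8 pharynx muscle markers summed to 346 to 365 CPM in DMSO and 430 to 448 CPM after rotenone, with 6 of 8 up and none down. The pharyngeal myosin myo-2 rose from 130 ± 4.69 to 162 ± 4.34 CPM (SD, n = 3, log2 difference 0.31 ± 0.04, edgeR adjusted p = 3.54e-06). The 8 genes of the apical matrix of late embryos and moulting larvae all rose, from a sum of 544 to 613 CPM to one of 822 to 841 CPM, with lpr-3 at 0.64 ± 0.06. Of the 8 neuron markers 5 rose and none fell, or 8 and 0 on library-total scaling (sums of 483 to 504 and 523 to 534 CPM). With TMM factors 4 of the 8 intestine markers fell and none rose, and on library-total scaling 4 fell and 3 rose (21389 to 22972 and 15875 to 17357 CPM), with asp-1, an aspartyl protease, at -0.75 ± 0.05. Most of these intestine sums was 1 gene, vit-2, with means of 18553 and 14029 CPM. The intestine markers elt-2, ges-1, ifb-2 and pept-1 did not pass with TMM factors. Epidermis markers had 2 up and 2 down of 8, or 3 and 1 on library-total scaling (481 to 529 and 426 to 444 CPM). Oocyte and early embryo markers had 0 up and 2 down of 8 with TMM factors but 5 up and 0 down on library-total scaling (6811 to 6968 and 6654 to 7000 CPM). Of 6 tested sperm markers 1 rose, or 2 on library-total scaling (21.4 to 23.2 and 25.2 to 26.1 CPM). The part of these tissues in the troponin differences was not tested.

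The partners of troponin in the sarcomere split too. The lists used here share genes with the muscle markers given above. Of the body wall markers all but hlh-1 recur, and of the pharynx markers myo-1, myo-2 and myo-5 recur. Tropomyosin, which troponin T anchors to the thin filament, is encoded by lev-11 and fell from 402 ± 19 to 341 ± 1.96 CPM at 5 days (SD, n = 3, -0.24 ± 0.04, edgeR adjusted p = 4.56e-05). Of 11 thin filament genes other than troponin 6 fell and none rose, with a median of -0.07 (4 up and 3 down on library-total scaling). The largest fall was that of unc-87, an actin-binding protein that stabilises thin filaments (-0.62 ± 0.05). Of 14 genes of thick filaments and giant kinases 7 rose and 5 fell (median 0.14), beside 8 and 4 on library-total scaling. unc-54, the main myosin heavy chain of body wall muscle, had the largest fall (-0.52 ± 0.08, edgeR adjusted p = 2.06e-05). myo-3, the other body wall myosin heavy chain, rose (0.27 ± 0.04, edgeR adjusted p = 3.09e-05), and myo-6 rose most (0.44 ± 0.06). Of 11 genes of dense bodies and muscle attachment 6 rose and 2 fell (median 0.11), beside 8 and 0 on library-total scaling. Of 17 genes of calcium handling and excitation 12 rose and 3 fell (median 0.25), beside 14 and 1 on library-total scaling. Among these csq-1, the calcium store protein calsequestrin, fell most (-0.61 ± 0.07), and unc-49, a receptor for the transmitter GABA, rose most (0.33 ± 0.05).

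Levels between genes were compared per kilobase of merged exons, a scale that places tnt-3 low because its exon length of 4917 bases joins many transcripts. In DMSO at 5 days the order of levels was pat-10 (323 CPM per kb), unc-27 (151), tni-4 (81.6), mup-2 (73.8), tnt-2 (46.7), tni-1 (28.8), tnc-2 (26.7), tni-3 (19.4), tnt-4 (16.4) and tnt-3 (12.0). No neighbours in this order overlapped between libraries. After rotenone at 5 days, tni-4 at 85.4 CPM per kb stood above mup-2 (64.6) and unc-27 (64.2), which overlapped each other. tnt-2 had gone from position 5 to position 8, and tnt-3 and tni-3 overlapped at the bottom of the order. At 15 days the first 6 places were pat-10, unc-27, tni-4, mup-2, tnt-2 and tnc-2 in both groups, and none of these neighbours overlapped. tni-1 and tnt-4 overlapped at that age, at 7.63 and 7.62 CPM per kb in DMSO and 7.76 and 7.59 after rotenone. In the rotenone group tni-3 and tni-1 overlapped as well.

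The make-up of each subunit class was read on the same scale. Shares are parts of a class total, so a gene that falls raises the shares of the others. At 5 days tni-4 went only from 81.6 to 85.4 CPM per kb and did not pass. The level of mup-2 went from 73.8 to 64.6 while its share rose. tnt-2 supplied 31.3 ± 0.944% of troponin T RNA in DMSO at 5 days and 14.7 ± 0.428% after rotenone (SD, n = 3). mup-2 supplied 49.6 ± 0.41% and 56.2 ± 0.969%, and tnt-4 supplied 11.01 ± 0.571% and 18.5 ± 0.33%. In troponin I the order changed, since unc-27 went from 53.7 ± 1.4% to 32.2 ± 0.213% and tni-4 from 29.1 ± 1.05% to 42.8 ± 0.251% (SD, n = 3). tni-1 went from 10.3 ± 0.25% to 19.1 ± 0.367% and tni-3 from 6.93 ± 0.153% to 5.97 ± 0.0749%. pat-10 supplied 92.4 ± 0.215% of troponin C RNA in DMSO and 87.2 ± 0.482% after rotenone. The total of each class was lower after rotenone, at 149 ± 10.2 and 115 ± 0.854 CPM per kb for troponin T, 280 ± 9.99 and 199 ± 0.631 for troponin I, and 349 ± 10.8 and 245 ± 3.19 for troponin C (SD, n = 3). Summed over the 7 body wall genes the level was 654 ± 28.4 CPM per kb in DMSO and 421 ± 0.863 after rotenone. Over the 3 pharyngeal genes it was 125 ± 1.28 and 138 ± 1.61 (SD, n = 3). These sums and shares are descriptions without a test.

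**Figure D3:**
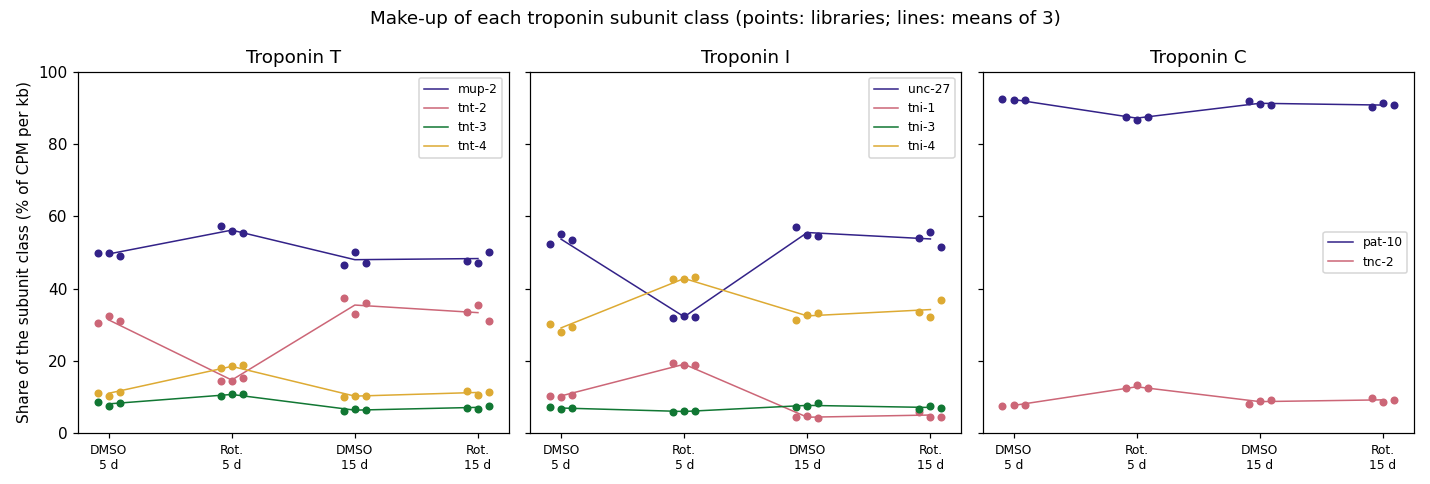
Share of each gene in its troponin subunit class (y axis, percent of the class's CPM per kilobase) in the 4 groups (x axis), with 1 point for each library and lines through the means of 3. In rotenone worms of 5 days of age the share of tnt-2 drops to 14.7% and that of unc-27 to 32.2%. At 15 days of age both groups have tnt-2 at 33.3% to 35.4% and unc-27 at 53.7% to 55.5%.

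By 15 days of age, no troponin gene passed for rotenone against DMSO, where 0.408% of all genes tested passed, 0.28% higher and 0.128% lower (edgeR quasi-likelihood test, Benjamini-Hochberg adjusted). tnt-2 had 45.9, 34.7 and 39.8 CPM in DMSO and 36.1, 38.4 and 28.1 CPM after rotenone, and the groups overlapped (-0.23 ± 0.10, edgeR adjusted p = 0.6). unc-27 had 101, 83.9 and 86.3 CPM in DMSO and 83.6, 83.5 and 65.95 CPM after rotenone, with 2 libraries only just below the lowest control (-0.22 ± 0.07, edgeR adjusted p = 0.4). tni-3 had 13.1, 11.7 and 13.2 CPM in DMSO and 10.7, 11.4 and 9.11 CPM after rotenone (-0.29 ± 0.07, edgeR adjusted p = 0.0968). pat-10 had 181, 161 and 168 CPM in DMSO and 159, 149 and 140 CPM after rotenone (-0.19 ± 0.04, edgeR adjusted p = 0.0692). With the sequencing lane as a block pat-10 passed (adjusted p = 0.034). mup-2 was at -0.13 ± 0.05. In these 4 genes with separate groups (mup-2, unc-27, tni-3 and pat-10) the rotenone libraries were below the DMSO libraries, and 11.1% of all genes tested had groups that did not overlap. The other 5 genes, tnt-3, tnt-4, tni-1, tni-4 and tnc-2, lay between -0.10 and 0.06 with overlapping groups.

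This result rested on the filter, the tool, the scaling, the lane block and the libraries kept. The number of members called lower was 0 by edgeR with the filter, TMM factors, no lane block and all libraries. It was 1 by DESeq2 (pat-10, adjusted p = 0.00551), 1 with library totals (pat-10, adjusted p = 0.0489) and 4 without a filter on low counts. Those 4 were tnt-2 (adjusted p = 0.000239), unc-27 (adjusted p = 1.19e-05), tni-3 (adjusted p = 0.00418) and pat-10 (adjusted p = 1.84e-05), with log2 differences of -0.22, -0.21, -0.28 and -0.18. pat-10 also passed without replicate 2 of DMSO (adjusted p = 0.0385) or without replicate 1 of rotenone (adjusted p = 0.0229). Of the 10 members 6 had an unadjusted p under 0.05, as had 1235 of all 17166 genes tested. Without a filter 322 of 28963 genes tested passed. With lane as a block 118 of 17166 passed, beside 70 with the filter and no block. Of those 70, 48 were higher and 22 lower, beside 41 and 33 with library totals.

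From 5 to 15 days in DMSO, all 10 troponin genes fell, beside 40.9% of all genes tested that were lower and 35.2% that were higher (76.2% in either direction). The median log2 difference was -0.85, beside -0.06 over all genes. tni-1 fell most, from 29.8 ± 0.393 to 7.90 ± 0.708 CPM (SD, n = 3, -1.93 ± 0.09, edgeR adjusted p = 2.21e-13). tnt-3 (-1.34 ± 0.04), tnt-4 (-1.10 ± 0.06) and mup-2 (-1.05 ± 0.05) followed. pat-10 (-0.89 ± 0.04), tnt-2 (-0.82 ± 0.09), tnc-2 (-0.69 ± 0.07), unc-27 (-0.64 ± 0.07), tni-3 (-0.54 ± 0.06) and tni-4 (-0.53 ± 0.04) fell less. In none of the 10 did the ages overlap, beside 77% of all genes tested without overlap. The smallest of these falls, in tni-4, was from 67.0 ± 1.09 to 46.3 ± 2.23 CPM (SD, n = 3), and Y59E9AL.36, with which it shares exon bases, went from 48.0 ± 2.33 to 102 ± 3.02 CPM.

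Other genes of the sarcomere were counted in the same age comparison. Of 14 genes of thick filaments and giant kinases 13 fell and none rose in DMSO, with a median of -1.21, and myo-3 was at -1.42 ± 0.04 and unc-54 at -1.29 ± 0.08. Of 17 genes of calcium handling and excitation 16 fell, and sca-1, the calcium pump of the sarcoplasmic reticulum, rose (0.20 ± 0.04). Of 11 genes of dense bodies and attachment 9 fell and 1 rose. The thin filament genes other than troponin had 5 up and 4 down of 11, with a median of 0.06. lev-11 fell (-0.68 ± 0.04), the calponin-like gene clik-1 fell most (-1.21 ± 0.08), and the actin gene act-2 rose most (0.62 ± 0.04). All 8 body wall muscle markers and 7 of 8 pharynx muscle markers fell, and so did all 8 intestine markers. The body wall markers other than hlh-1, and myo-1, myo-2 and myo-5 of the pharynx, are also counted in the sarcomere lists. The sum of the intestine markers went from 21389 to 22972 CPM at 5 days to 4195 to 4659 CPM at 15 days. Most of that sum was 1 gene, vit-2, with means of 18553 and 3948 CPM at these ages. Another of the 8, elt-2, fell less (-0.59 ± 0.05). The oocyte and early embryo markers summed to 6811 to 6968 and 6660 to 6711 CPM at these ages, with 2 up and 3 down of 8. Epidermis markers had 5 up and 3 down of 8, and of 6 tested sperm markers 5 rose and none fell. Of 8 neuron markers 1 rose and 5 fell. Of the 8 genes of the apical matrix 6 fell and none rose. The part of these tissues in the fall of the troponin genes was not tested.

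After rotenone the same age comparison gave 7 falls and 2 rises, beside 42.9% and 36.6% of all genes tested (79.5% in either direction). The rises were those of tnt-2, from 25.5 ± 0.674 to 34.2 ± 5.43 CPM (0.43 ± 0.10, edgeR adjusted p = 0.00065), and unc-27, from 59.9 ± 0.374 to 77.7 ± 10.2 CPM (0.38 ± 0.07, edgeR adjusted p = 0.000125; SD, n = 3). In both genes all 3 libraries at 15 days were above all 3 at 5 days, though replicate 3 lay close to the younger worms, at 28.1 and 65.95 CPM. tni-3 did not pass (-0.12 ± 0.07, edgeR adjusted p = 0.12), with 11.1 to 11.4 CPM at 5 days and 9.11 to 11.4 CPM at 15 days. It passed as lower with library totals (-0.22, adjusted p = 0.0068) and without replicate 2 of the rotenone group at 15 days (-0.18, adjusted p = 0.0302). tni-1 again fell most, from 39.4 ± 0.711 to 8.04 ± 1.83 CPM (SD, n = 3, -2.27 ± 0.09, edgeR adjusted p = 7.31e-15). tnt-4 was at -1.48 ± 0.06, tnt-3 at -1.36 ± 0.04, tnc-2 at -1.01 ± 0.07, mup-2 at -0.99 ± 0.05, tni-4 at -0.70 ± 0.04 and pat-10 at -0.49 ± 0.04. In 9 of the 10 members the ages did not overlap, beside 81.3% of all genes tested. With library totals the median of all genes went from -0.09 to -0.19. Of all genes tested 5404 were then higher and 8186 lower, beside 6276 and 7371 with TMM factors. The members stood at 2 higher and 8 lower with library totals. The myosins myo-3 (-1.71 ± 0.04) and unc-54 (-0.92 ± 0.08) and tropomyosin lev-11 (-0.52 ± 0.04) fell.

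The change of the rotenone difference between the ages was tested directly as an interaction, the difference at 15 days minus that at 5 days. 7 of 10 members passed, 4 higher and 3 lower, beside 25.7% of all genes tested (15.4% higher and 10.3% lower). tnt-2 (1.24 ± 0.14, edgeR adjusted p = 2.66e-06), unc-27 (1.01 ± 0.10, edgeR adjusted p = 1.23e-06), tni-3 (0.42 ± 0.09, edgeR adjusted p = 0.00265) and pat-10 (0.41 ± 0.06, edgeR adjusted p = 8.13e-05) were those higher. Each of these 4 had fallen after rotenone at 5 days, but that difference is part of the interaction, so this is no separate check. The rotenone libraries of 5 days also enter the age comparison after rotenone. The 3 pharyngeal genes were those lower, with tnt-4 at -0.38 ± 0.09 (edgeR adjusted p = 0.00428), tnc-2 at -0.32 ± 0.10 (edgeR adjusted p = 0.0195) and tni-4 at -0.17 ± 0.06 (edgeR adjusted p = 0.0374). The pharyngeal calls were the weaker ones: tni-4 did not pass with RLE factors (adjusted p = 0.0727) or by DESeq2 (adjusted p = 0.0782), and it passed in only 3 of the 12 fits with 1 library left out (adjusted p 0.0117 to 0.124). tnc-2 passed in 8 of these 12 fits (adjusted p 0.000966 to 0.067). Without replicate 2 of rotenone at 5 days, or replicate 2 or 3 of rotenone at 15 days, tnt-4 alone among the members passed as lower. mup-2 (0.06 ± 0.07) and tnt-3 (-0.01 ± 0.06) did not pass, nor did tni-1 (-0.34 ± 0.13, edgeR adjusted p = 0.0605), which passed with lane as a block (adjusted p = 0.0348) and with library totals (adjusted p = 0.0107). Of the partners, lev-11 (0.16 ± 0.05) and unc-54 (0.37 ± 0.11) were higher and myo-3 (-0.29 ± 0.06) and myo-2 (-0.27 ± 0.06) lower. With library totals the median of all genes in this comparison moved from -0.01 to -0.15, with 940 genes higher and 4295 lower beside 2643 and 1776 (2950 and 1055 by DESeq2), and the members stood at 4 higher and 4 lower.

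Across the 12 libraries the members formed differing profiles. Likeness was measured as the Euclidean distance between log2 CPM values centred on each gene's mean, and is a description over libraries that share groups and lanes. Of all 17166 genes tested, the nearest to tnt-2 was unc-27, at a distance of 0.366 (Pearson r = 0.995, n = 12 libraries), and the nearest to unc-27 was tnt-2. After it, the genes nearest to tnt-2 were sysm-1 (distance 0.662), asp-14, an aspartyl protease (0.689), ZK1321.4 (0.796) and F23F12.12 (0.806). For unc-27 they were F23F12.12 (0.557), asp-14 (0.59), C17G1.2 (0.631) and acs-22, an acyl-CoA synthetase (0.634). tni-3 was rank 27 for tnt-2 and rank 18 for unc-27, and pat-10 was rank 150 and rank 361. tni-1, which shares its class with unc-27, was far from unc-27, at rank 16322 (distance 3.99, r = 0.043). tni-1 was at rank 3944 for tnt-3 (distance 1.45, r = 0.988) and rank 3989 for tnt-4 (distance 1.46, r = 0.993). These were smaller distances with high correlation, but neither was a near match by distance. mup-2 was far from tnt-2 (rank 9998, r = 0.345) and nearer to tnt-3 (rank 967, r = 0.978), both of troponin T.

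**Figure D4:**
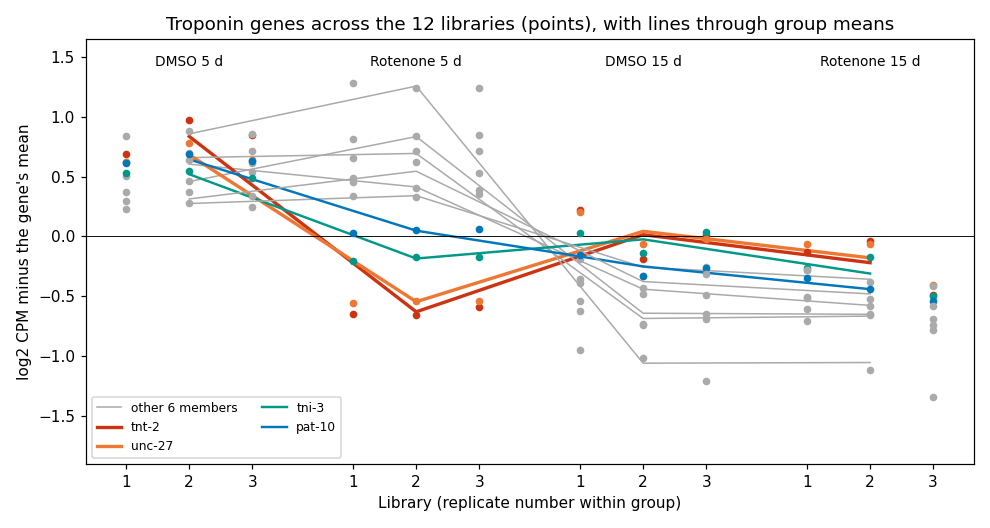
Log2 CPM of each troponin gene minus its own mean (y axis) in the 12 libraries (x axis, by group and replicate number), with points for libraries, lines through group means, 4 genes in colour and the other 6 in grey. tnt-2 and unc-27 run together through all 4 groups and are lowest in the rotenone group of 5 days of age. In that group tni-1 and the 3 pharyngeal genes, in grey, have their highest group means.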

How the data were processed

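RNA of 12 whole-worm libraries, 3 in each of 4 groups, was made into libraries with TruSeq RNA v2, per the labels. The authors deposited raw counts per gene. Per the submitters' processing notes they used bcl2fastq 1.8.3, STAR 2.4.1d, featureCounts 1.4.6-p4 and the build WBcel235, and settings were not given in the sources used here. A deposited RPKM table was not used, because the library totals behind it had been recycled down its columns, so that values of 1 library were scaled with totals of others. Symbols, positions and exon lengths came from Ensembl release 115, which holds 46449 of 46748 identifiers. 107 of 108 list symbols matched (tmd-1 did not).

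Counts were fitted in R 4.3.3 with edgeR 4.0.16: filterByExpr with a minimum count of 10, TMM factors, 1 quasi-likelihood model of 4 groups without covariates, 5 contrasts and Benjamini-Hochberg adjustment over 17166 genes. Standard errors were taken as the absolute log2 difference over the root of the F statistic. The fit was tested on simulated data. log2 CPM used a prior count of 2. Depth was 34307432 to 53716605 counts, and precision is given as SD over 3 libraries or the standard error. Replicate pairs differed by 3.04 to 13.2 times counting noise in the mean over genes, so none was a copy. In the median over genes the ratio was only 1.24 to 2.61, nearer to counting noise. Alternatives were library totals, RLE factors, no filter, DESeq2 1.42.0, lane as a block, 2 groups only and leaving out each library. Replicate numbers pair libraries by sequencing lane, per the labels. Deviations of same-lane libraries correlated at a median r of 0.087 (-0.186 to 0.407, 18 pairs), and those of other lanes at -0.0461.

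Named genes were all members, the called gene of each list with the largest rise and fall (a selection of these is given), lev-11, myo-3, unc-54 and myo-2, and the 5 genes nearest to tnt-2 and to unc-27. Members and lists were chosen with earlier results of these data known. Sequences, and the promoter motifs planned, were not analysed here.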

Additional observations from a re-analysis of the deposited data

Results flagged for a closer look

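In 7 members the rotenone difference itself differed between 5 and 15 days by the interaction test. Over all genes tested 25.7% passed it, 15.4% higher and 10.3% lower. The log2 values of the 7 members (15 days minus 5 days) were 1.24 for tnt-2, 1.01 for unc-27, 0.42 for tni-3 and 0.41 for pat-10. They were -0.38 for tnt-4, -0.32 for tnc-2 and -0.17 for tni-4. The call of tni-4 held in only 3 of 12 fits with 1 library left out, and that of tnc-2 in 8 of 12. With 3 libraries a group, no library was examined as lying apart from its group.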

How the results depend on the processing

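Of the recomputed log2 differences of single members, 598 kept their direction and their side of the threshold, 18 newly passed, 17 no longer passed and 17 changed sign. All sign changes were in differences that did not pass, in rotenone against DMSO at 15 days or in the interaction. At 15 days tnt-4 (main value 0.00) went to 0.00140 with RLE factors, 0.00701 without a filter and 0.000112 by DESeq2. With 1 library left out tnt-4 ranged from -0.079 to 0.065, tnt-3 from -0.00548 to 0.059 and tni-1 from -0.155 to 0.189. In the interaction mup-2 went to -0.0744 with library totals, and tnt-3 to 0.0135 with RLE factors and 0.0136 by DESeq2, or -0.041 to 0.025 with 1 library left out.

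With library totals 5 members rose at 5 days instead of 3, and 6498 of all genes tested rose instead of 3662. At 15 days 1 member was lower with library totals, by DESeq2 and with lane as a replicate block, 4 without a filter, and 0 to 1 with 1 library left out (1 without replicate 2 of DMSO or replicate 1 of rotenone). All genes called there numbered 322 of 28963 tested without a filter, 118 with lane as a replicate block and 45 with 2 groups only. With 1 library left out they numbered 31 to 77 (under 50 without replicate 1 of DMSO or replicate 2 or 3 of rotenone). Lane as a block changed no other call than those of pat-10 at 15 days and tni-1 in the interaction. Members lower in the interaction numbered 1 to 4 with 1 library left out. The cause of these changes was not tested. The calls of tnt-2, unc-27, tni-3 and pat-10 at 5 days held in every alternative run. At 15 days unc-27 ranged from -0.27 to -0.11 with 1 library left out.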
